A study of Mus musculus with 16 samples.

Results

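The interaction of genotype and injury asks whether the difference between Glud1-deficient and wild-type muscle macrophages was the same in undamaged muscle as at the height of muscle damage. It was measured by RNA sequencing in all 16 of the 16 libraries of the study, chosen by their labels alone, with 4 libraries in each of 4 groups. The groups were mouse macrophages of genotype WT or GLUD1 KO, sorted as F4/80-positive cells from normal muscle or from muscle injected with CTX, which is the usual abbreviation of cardiotoxin but is not spelled out in the labels. The design text gives the study's purpose as the M1, M2 and wound healing genes of Glud1-deficient macrophages in both muscle states. The Cre line or promoter, the deleted part of Glud1, the age and strain of the mice, the dose of CTX and the time after injection are not given in the sources used here. Whether each library is a different mouse is not stated in the labels. The p-values therefore speak of the spread among these libraries, part of which may be technical.

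Glud1 encodes glutamate dehydrogenase, the mitochondrial enzyme that turns glutamate into 2-oxoglutarate and feeds glutamine-derived carbon into the TCA cycle. Toxin injury of muscle is followed by an influx of monocytes that become macrophages, first of an inflammatory and later of a repair type, alongside the resident macrophages of undamaged muscle. Macrophages take up or make glutamine in both phases, and vessel cells, fibroblasts and pericytes lie close to them in the tissue.

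The interaction is the difference of differences on a log2 scale, KO minus WT in CTX-injected muscle less KO minus WT in normal muscle. A positive value means that KO stood higher against WT after CTX than in normal muscle, and a negative value the reverse. Levels are CPM (read counts scaled to a common library size) with TMM factors, and libraries are listed as WT 2, 3, 5 and 6 and KO 1, 2, 3 and 5 of normal muscle, and 1 to 4 of each CTX group. Total counts ran from 17051892 to 23097420 a library. Adgre1, which encodes F4/80, averaged 603 CPM in WT and 539 CPM in KO normal muscle, and 845 CPM in WT and 893 CPM in KO CTX-injected muscle, with an interaction of 0.24 (SE 0.30). The 16 pan-macrophage markers summed to 18343 to 26663 CPM in WT and 16265 to 22024 CPM in KO normal libraries, and to 34017 to 40805 CPM in WT and 26337 to 31119 CPM in KO libraries after CTX. Much of the lower KO sum after CTX was in 1 member, Lyz2, at a mean of 14893 CPM in WT and 8021 CPM in KO, and the median KO minus WT of the list was 0.01 log2. Xist was over 10 CPM, a female pattern, in normal-muscle libraries WT 5, WT 6 and KO 5, and under 10 CPM in the other 13, which include all 8 of injured muscle.

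Glud1 itself lies on chromosome 14 at 34310727 to 34345265 (plus strand, GRCm38/mm10). Its level was 258, 292, 253 and 219 CPM in the WT and 240.0, 238, 272 and 209.8 CPM in the KO libraries of normal muscle. In CTX-injected muscle it was 391, 387, 348 and 366 CPM in WT and 327, 334, 351 and 342 CPM in KO. The genotypes overlapped in both muscle states, and both stood higher after CTX than in normal muscle. The interaction was -0.05 log2 (95% interval -0.35 to 0.26, edgeR quasi-likelihood test, adjusted p = 1.0). An exact two-sided permutation test over the 4900 ways of placing the genotype labels within each muscle state gave p = 0.728, where the smallest possible p is 0.000408. Since the deleted part of Glud1 is unknown here, reads summed over the gene cannot test the genotype labels.

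No gene passed the interaction test. Of 13649 genes tested by edgeR's quasi-likelihood test over all 16 libraries, 0 (0%) had a Benjamini-Hochberg adjusted p under 0.05, 4 (0.0293%) had one under 0.1, Lyz1, Igfbp7 and Xdh among them, and 646 (4.73%) had an unadjusted p under 0.05. The DESeq2 Wald test on the same genes called 48, with 9 positive and 39 negative, and limma voom with sample quality weights called 11, with 2 positive and 9 negative. All 11 were among the 48, and each of the 48 had an unadjusted edgeR p of at most 0.00728. With edgeR, leaving out KO normal library 5 gave 2 calls, Dcn and Igfbp7, leaving out KO CTX library 2 gave 2, of which Xdh was positive and the other negative, and male libraries alone gave 1, Dcn. Of the 42 named genes other than Glud1, limma voom called 7, namely Lyz1, Igfbp7, Xdh, Slco2a1, Plvap, Nid1 and Dcn. DESeq2 called 18 of the 42, these and Myl9, Spsb1, Tie1, Ptpro, Gbp6, Wwtr1, Cdc14b, Casp1, Acta2, Zfp53 and Iigp1. Which tool or setting is nearer the truth was not tested. The values below are therefore estimates that did not pass the main test unless another test is named.

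The negative side was the longer one among the smallest p-values. An unadjusted p under 0.05 went with a negative interaction in 431 genes (3.16%) and with a positive one in 215 (1.58%), while 51.2% of all genes tested had an estimate below 0. In 400 of the 431 the fitted KO level was above WT in normal muscle and below WT after CTX, and 177 of the 215 had the reverse pattern. Over all 13649 genes tested, 3385 had the first pattern and 2507 the reverse. Picking genes by the sign of their interaction favours such patterns, so these counts are no separate result. The negative genes were of low expression, with a median highest group mean of 5.89 CPM against 25.2 CPM for the positive ones and 22.2 CPM for all genes. In WT, 236 of the 431 fell with injury (54.8%), as did 157 of the 215 (73.0%) and 5378 of all genes (39.4%). The WT injury change enters the interaction with a minus sign. Picking positive interactions therefore favours genes that fell in WT, and the 73.0% is partly set by that choice. For most genes the data bounded the interaction: 62.5% of all genes had a 95% interval within 1 log2 unit, a 2-fold change, of 0. That share was 85.8% for genes of at least 100 CPM in their highest group, 84.7% from 10 to 100 CPM and 22% under 10 CPM.

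**Figure D1:**
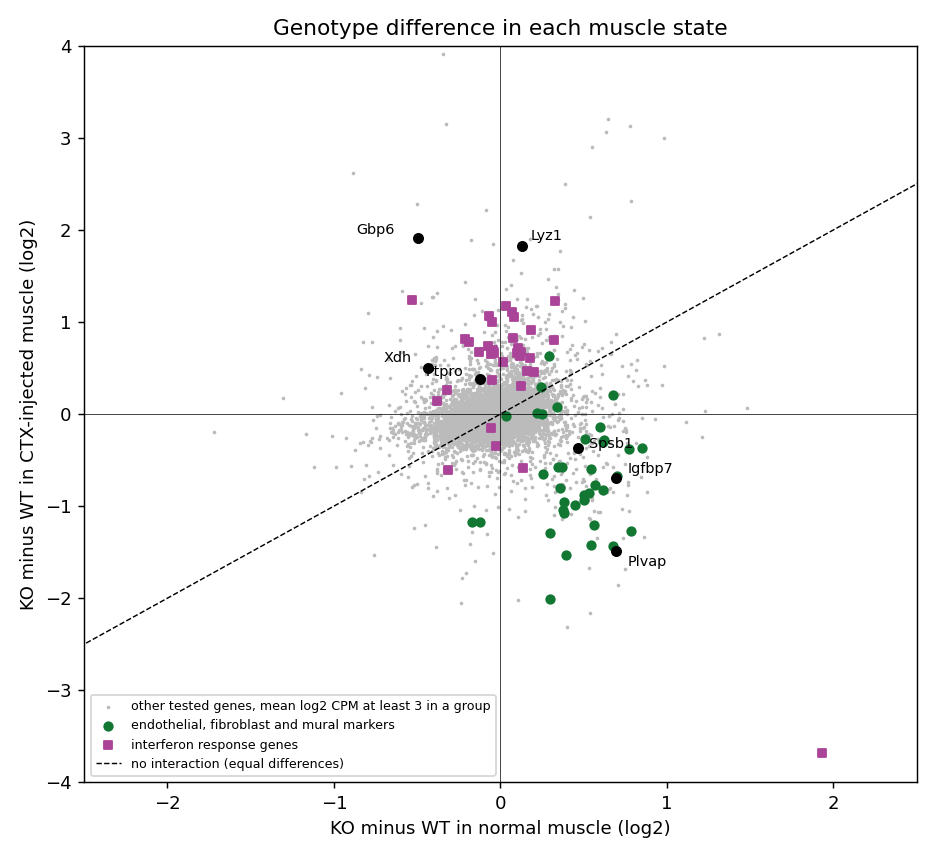
The genotype difference (KO minus WT, log2) of each gene in normal muscle, on the horizontal axis, against that in CTX-injected muscle, on the vertical axis. Genes on the dashed line have no interaction. Most endothelial, fibroblast and mural cell markers (green) lie to its lower right and most interferon response genes (purple) above it. The single purple square at the bottom is Ifi44, with an interaction of -5.62 that ran from -6.85 to -0.91 in alternative fits.

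Lyz1 had the smallest p among the positive interactions. It encodes a lysozyme, a bacteria-degrading enzyme of myeloid cells, and lies on chromosome 10 at 117287797 to 117292868 (minus strand). In normal muscle it was at 1389, 907, 1393 and 1192 CPM in WT and 968, 1737, 1614 and 1018 CPM in KO, and after CTX at 52.7, 71.6, 88.8 and 81.5 CPM in WT and 249, 260.1, 286 and 252 CPM in KO. The genotypes overlapped in normal muscle and stood far apart after CTX, where the lowest KO library was above every WT library. Lyz1 fell with injury in both genotypes, by 4.05 on the log2 scale in WT and by 2.35 in KO. The interaction was 1.70 (SE 0.29, 95% interval 1.09 to 2.31, edgeR adjusted p = 0.0818), and it passed in DESeq2 (adjusted p = 0.000123) and limma voom (adjusted p = 0.0312). KO minus WT after CTX alone was 1.83 log2 (edgeR adjusted p = 0.00228).

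The neighbouring Lyz2, the main macrophage lysozyme, was named after its values were seen. It averaged 14893 ± 1174 CPM in WT and 8021 ± 922 CPM in KO CTX-injected muscle (SD, n = 4 each), where the genotypes did not overlap and KO was the lower. Its interaction was -0.49 (SE 0.38, edgeR adjusted p = 1.0), opposite in sign to that of Lyz1. Of the 50-base stretches of Lyz1 transcripts 16.1% also occur in Lyz2, and the rule for counting reads from shared stretches is unknown here. After CTX the KO mean of Lyz1 was 261.8 CPM against 73.7 CPM in WT, a far smaller difference in CPM than that of Lyz2. The part of shared reads, whether moved between the pair or left uncounted, in either difference was not tested. Whether a Cre inserted in Lyz2, as in a common myeloid deleter line, altered the reads of that gene was not tested. The labels name no Cre line.

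Xdh encodes xanthine dehydrogenase, which makes uric acid at the end of purine breakdown, and lies on chromosome 17 at 73883895 to 73950196 (minus strand). Its level in normal muscle was 241, 313, 284 and 285 CPM in WT and 199.8, 228, 196 and 208 CPM in KO, and after CTX 209, 219, 229 and 259.9 CPM in WT and 322, 268, 351 and 357 CPM in KO. Every KO library was below every WT library in normal muscle and above every WT library after CTX. Xdh fell with injury in WT, by 0.29 on the log2 scale, and rose in KO by 0.64 (edgeR adjusted p = 0.0282 and 9.89e-05). The interaction was 0.94 (SE 0.16, 95% interval 0.60 to 1.27, edgeR adjusted p = 0.0818), with an adjusted p of 6.77e-05 in DESeq2 and 0.0332 in limma voom.

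KO stood above WT without overlap for 91 genes (0.667%) in normal muscle and 250 (1.83%) after CTX, and below WT for 57 (0.418%) and 528 (3.87%). It was above in both states for 1 gene (0.00733%) and below in both for 3 (0.022%). A crossing without overlap, as in Xdh, was seen for 7 genes. Of all genes tested, 2 (0.0147%) had KO below WT in normal and above WT in CTX-injected muscle, and 5 (0.0366%) the reverse. Cdc14b, a phosphatase that acts late in mitosis, was the other of the first kind, at 9.72 to 14.8 CPM in WT and 7.85 to 9.72 CPM in KO normal libraries, which are apart by less than the rounding, and 5.21 to 5.97 against 6.39 to 9.40 CPM after CTX (interaction 0.95, edgeR adjusted p = 0.283). Of the second kind were Spsb1, Tspan7, Gja4, Tspan15 and Dlg5, the last 3 of them under the expression limit for named genes and given here because the count is small. Spsb1, an adaptor of a ubiquitin ligase, was at 9.96, 8.86, 8.90 and 11.01 CPM in WT and 15.3, 11.2, 13.3 and 13.8 CPM in KO normal muscle, and at 24.6, 21.4, 21.1 and 19.7 CPM in WT and 17.5, 18.4, 16.5 and 14.8 CPM in KO after CTX. It rose with injury in both genotypes, by 1.16 log2 in WT and 0.33 in KO, so that KO began higher and ended lower (interaction -0.84, SE 0.17, edgeR adjusted p = 0.188).

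In the other positive genes the KO mean was at or under WT in normal muscle and above it after CTX. Picking positive interactions favours this shape, so it is no separate result. Ptpro, a receptor-type tyrosine phosphatase, was at 158, 159, 167 and 152 CPM in WT and 156, 140.4, 139 and 149 CPM in KO normal muscle, and at 69.1, 70.0, 78.1 and 68.6 CPM in WT and 96.6, 86.3, 93.1 and 95.4 CPM in KO after CTX. The groups did not overlap after CTX, and the interaction was 0.50 (SE 0.11, edgeR adjusted p = 0.244). Casp1, the inflammatory caspase that matures interleukin-1 beta, averaged 65.3 ± 5.77 CPM in WT and 55.9 ± 4.09 CPM in KO normal muscle and 46.9 ± 3.31 and 56.8 ± 2.40 CPM after CTX (interaction 0.50, edgeR adjusted p = 0.283). It fell with injury in WT, by 0.48 log2, and differed by 0.02 in KO (edgeR adjusted p = 0.810). Gbp6, an interferon-induced guanylate-binding protein, was at 5.78 to 13.2 CPM in WT and 4.82 to 9.62 CPM in KO normal muscle, and at 0.566 to 1.93 CPM against 1.90 to 5.87 CPM after CTX, with an interaction of 2.41 (SE 0.57). The interactions of Zfp53, a zinc finger protein, and Fam126a, which takes part in making phosphoinositides at the plasma membrane, were 0.93 and 0.62, with edgeR adjusted p-values of 0.287 and 0.297.

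**Figure D2:**
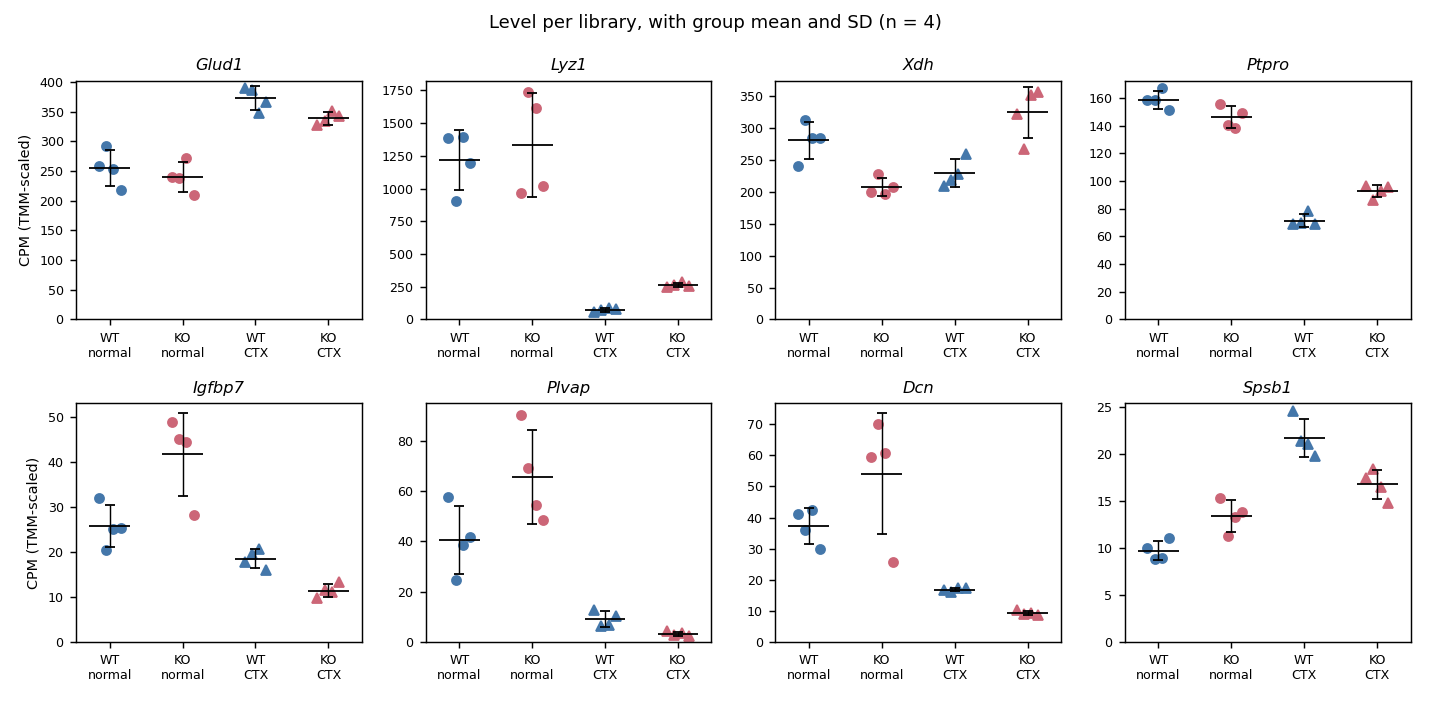
Level in CPM (linear axis from 0) of 8 genes in each library, with the group mean and SD (n = 4). KO (red) lies above WT (blue) after CTX for Lyz1, Xdh and Ptpro and below it for Igfbp7, Plvap, Dcn and Spsb1, whereas Glud1 overlaps in both states; KO normal library 5 is the lowest red circle for Igfbp7, Plvap and Dcn.

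Igfbp7 led the negative genes of moderate expression. It encodes a secreted binding protein for insulin-like growth factors that is abundant in vessels, and lies on chromosome 5 at 77349240 to 77408041 (minus strand). In normal muscle it was at 32.0, 20.5, 25.2 and 25.3 CPM in WT and 49.0, 45.2, 44.6 and 28.2 CPM in KO, and after CTX at 17.8, 19.6, 20.7 and 15.9 CPM in WT and 9.73, 11.5, 11.1 and 13.2 CPM in KO. KO normal library 5 was within the WT range, the other KO normal libraries were above it, and after CTX every KO library was below every WT library. The interaction was -1.39 (SE 0.24, edgeR adjusted p = 0.0818), with an adjusted p of 0.000379 in DESeq2 and 0.0118 in limma voom, and without KO normal library 5 it was -1.55 (edgeR adjusted p = 0.00817).

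Plvap, the diaphragm protein of fenestrated and postcapillary endothelium, was at 57.6, 24.7, 38.4 and 41.6 CPM in WT and 90.6, 69.4, 54.6 and 48.6 CPM in KO normal muscle. After CTX it was at 12.7, 6.13, 6.71 and 10.4 CPM in WT and 4.15, 2.72, 3.69 and 2.29 CPM in KO. The genotypes overlapped in normal muscle and not after CTX, and Plvap fell with injury by 2.17 log2 in WT and by 4.36 in KO. Its interaction was -2.19 (SE 0.41, edgeR adjusted p = 0.143). Dcn, which encodes the fibroblast proteoglycan decorin, was at 41.2, 35.9, 42.4 and 29.7 CPM in WT and 59.3, 70.2, 60.8 and 25.7 CPM in KO normal muscle, and at 16.5, 16.1, 17.2 and 17.3 CPM in WT and 10.1, 8.94, 9.28 and 8.78 CPM in KO after CTX. KO normal library 5 was the lowest of all normal libraries, against 3 KO libraries above every WT one, and the interaction of -1.39 (SE 0.31, edgeR adjusted p = 0.259) became -1.63 without that library (adjusted p = 0.000746) and -1.58 in male libraries alone (adjusted p = 0.000909).

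The remaining negative genes had the same shape in their group means, at lower levels. Picking negative interactions favours this shape too. Tie1, an endothelial receptor tyrosine kinase, averaged 11.7 ± 2.45 CPM in WT and 17.3 ± 4.35 CPM in KO normal muscle and 3.75 ± 1.31 and 1.63 ± 0.362 CPM after CTX (interaction -1.77, SE 0.37). Nid1, a linker protein of basement membranes, averaged 14.6 ± 1.35 and 19.6 ± 4.54 CPM in normal muscle and 6.42 ± 1.02 and 3.01 ± 1.05 CPM after CTX, in the same order of groups (interaction -1.51, SE 0.33). Myl9, a myosin light chain of smooth muscle, had an interaction of -2.43 (SE 0.47), Wwtr1, a coactivator of the Hippo pathway, -1.34 (SE 0.32), and Tspan7, a tetraspanin, -1.35 (SE 0.34). The edgeR adjusted p-values of these 5 genes ran from 0.164 to 0.294. Slco2a1, a prostaglandin transporter, was under the expression limit for named genes and is given after its values were seen. It had an interaction of -2.81 (edgeR adjusted p = 0.143), with an adjusted p of 0.000379 in DESeq2 and 0.0332 in limma voom.

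Markers of vessel and connective tissue cells had negative interactions as lists. At an unadjusted edgeR p under 0.05 the interaction was negative in 10 of the 14 endothelial, 7 of the 13 fibroblast and 7 of the 10 mural cell markers tested, and positive in none of them. The background was 3.16% of all genes in that direction. The list medians were -1.12, -1.05 and -1.29, against -0.01 for all genes tested, and 0 members passed the adjusted threshold in edgeR. Among endothelial members Cldn5, of tight junctions, had -2.06, Tek, the angiopoietin receptor, -1.93 and Emcn -2.10, whereas Eng (-0.05), Flt1 (-0.21) and Kdr (0.34) lay near or above 0. Col6a1 and Col6a2, chains of collagen VI, had -1.42 and -1.43 and Pdgfra, the receptor that marks fibroblasts, -1.05. Of the mural markers Acta2, smooth muscle actin, had -1.22, Pdgfrb, the pericyte receptor, -1.15 and Rgs5 -1.59. Every member tested of these lists was detected in every group.

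The sums of these lists show where the values come from. The mural sum was 78.7, 58.8, 56.8 and 74.7 CPM in WT and 106, 135, 104 and 64.3 CPM in KO normal muscle, and 28.6, 22.7, 24.1 and 19.1 CPM in WT and 17.2, 17.2, 17.2 and 17.98 CPM in KO after CTX. After CTX all KO libraries were below all WT libraries, and in normal muscle KO library 5 alone lay within the WT range. The fibroblast sum was 543, 627, 310.1 and 285 CPM in WT and 549.6, 707, 998 and 243 CPM in KO normal muscle, and 115 to 138 CPM in WT against 88.4 to 106 CPM in KO after CTX. In normal muscle the 3 lowest fibroblast sums were those of the 3 female libraries, and after CTX the genotypes did not overlap. The endothelial sum was 179 to 238 CPM in WT and 223 to 313 CPM in KO normal muscle and overlapped after CTX (88.3 to 102 against 77.3 to 96.3 CPM).

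With male libraries only, which leaves 2 WT and 3 KO libraries of normal muscle, the counts of negative members were again 10, 7 and 7 and the medians -1.25, -1.20 and -1.53. Over the 16 fits that leave out 1 library each the endothelial count was 8 to 10, the fibroblast count 5 to 9 and the mural count 6 to 7. In bulk libraries fewer cells of a type and less of their RNA per cell cannot be told apart, and the part that carried-over vessel and connective tissue cells had in the negative interactions of single genes was not tested. Of the 39 negative DESeq2 calls, 5 were on these 3 lists, which hold 14, 13 and 10 tested members. All 39 had a fitted KO level above WT in normal muscle and below WT after CTX, and 38 fell with injury in KO. Both patterns are favoured by picking negative interactions. Among all 13649 genes tested, 3385 had the first and 5491 the second.

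**Figure D3:**
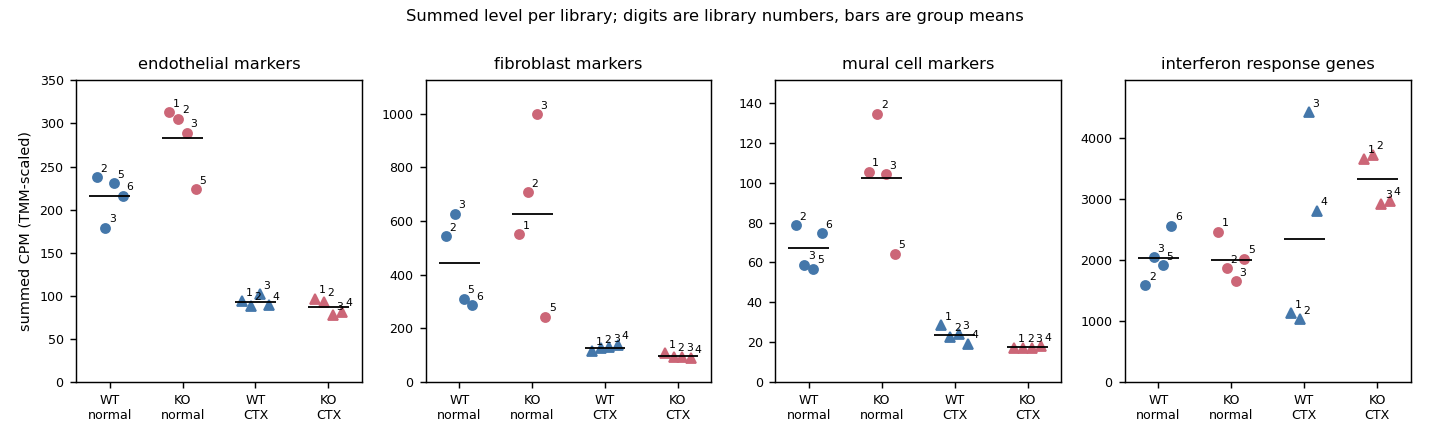
Summed level in CPM (linear axes from 0) of 4 gene lists in each library, with library numbers as digits and group means as bars. KO normal library 5 is the lowest KO circle for the endothelial, fibroblast and mural sums, and WT CTX libraries 1 and 2 stand far below libraries 3 and 4 for the interferon sum.

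Interferon response genes leaned the other way, but their number depended on single libraries. Of 34 tested, 29 had positive estimates, the median was 0.60, and 8 had a positive and 1 a negative interaction at an unadjusted edgeR p under 0.05, against 1.58% and 3.16% of all genes. Without WT CTX library 3 the positive count was 24 and the median 1.04, and without WT CTX library 4 the count was 12. It was 2 to 5 when any 1 of WT normal libraries 3, 5 or 6, KO normal libraries 2, 3 or 5, WT CTX libraries 1 or 2, or KO CTX libraries 1, 2 or 4 was left out, and 2 with male libraries only (median 0.47). With a replicate block in normal muscle alone, where same-numbered and some differently numbered libraries deviated together, it was 4. The summed level was 1585, 2048, 1912 and 2565 CPM in WT and 2467, 1861, 1656 and 2019.5 CPM in KO normal muscle, and 1123, 1028, 4424 and 2812 CPM in WT and 3664, 3730.3, 2927 and 2976 CPM in KO after CTX. WT CTX libraries spanned the whole KO range and more, and the KO libraries lay close together.

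Iigp1, an interferon-induced GTPase, was at 34.3, 46.8, 40.1 and 45.9 CPM in WT and 36.0, 25.8, 28.4 and 25.2 CPM in KO normal muscle, and at 1.76, 0.223, 1.33 and 1.87 CPM in WT and 3.34, 3.396, 1.51 and 3.95 CPM in KO after CTX. The genotypes overlapped in both muscle states, and the interaction was 1.77 (SE 0.47, edgeR adjusted p = 0.341). Further positive members were Igtp (0.97), a GTPase of the same family, Oasl2 (1.13), Zbp1 (1.05), a nucleic acid sensor, Gbp2 (1.03) and Stat2 (0.74), a transcription factor of the type I interferon pathway. Ifi44, the negative member, is given after its values were seen. It was at 22.7, 2.32, 3.20 and 5.36 CPM in WT and 52.9, 36.5, 36.3 and 2.92 CPM in KO normal muscle, and at 0.283, 0, 80.8 and 79.4 CPM in WT and 3.92, 3.85, 2.07 and 2.65 CPM in KO after CTX. Within 3 of the 4 groups some libraries were many times higher than others, and the genotypes overlapped in both muscle states (interaction -5.62, SE 1.78, edgeR adjusted p = 0.610). Over the 29 alternatives to the test the estimate ran from -6.85 to -0.91. WT CTX library 2 had no read of Ifi44, which allows up to 0.167 CPM (3 counts, counting error only).

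The design text names M1, M2 and wound healing genes, and the members of these lists were chosen here. In these lists 0 genes passed the adjusted threshold. Of 24 M1 genes tested, the inflammatory class, 2 were positive and 0 negative at an unadjusted edgeR p under 0.05, against 1.58% and 3.16% of all genes, with a median of -0.13 that turned to 0.38 without WT CTX library 3. Fcgr1, a high-affinity Fc receptor, averaged 48.4 ± 6.14 CPM in WT and 46.1 ± 5.06 CPM in KO normal muscle and 310.3 ± 44.1 and 379 ± 7.06 CPM after CTX, an interaction of 0.36 (SE 0.17, edgeR adjusted p = 1.0). Cxcl9, an interferon-gamma-induced chemokine, had 3.48 (SE 1.37), but KO CTX library 4 was at 13.8 CPM and the other KO and WT libraries after CTX at 0 to 0.906 CPM, and the value was 0.66 without that library. Ccl5, a chemokine for T cells, had -2.71 (SE 1.31), with WT CTX library 3 at 119 CPM and the other CTX libraries at 1.51 to 9.85 CPM, and 0.45 without that library. Nos2 (-1.45), Il1b (-0.57) and Tnf (-0.07) had unadjusted edgeR p-values of 0.382, 0.213 and 0.857.

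Of 24 M2 genes tested, the alternatively activated class, 3 were positive and 0 negative, against the same 1.58% and 3.16% of all genes, with a median of 0.12. Ccl24, an eosinophil-attracting chemokine, was at 169, 183, 287 and 173 CPM in WT and 89.3, 107, 105 and 234 CPM in KO normal muscle, and at 161, 171, 106 and 184 CPM in WT and 498, 148, 271 and 275 CPM in KO after CTX. The genotypes overlapped in both states, where KO normal library 5 was above 3 of the 4 WT libraries and KO CTX library 2 within the WT range, and the interaction was 1.54 (SE 0.48, edgeR adjusted p = 0.582). Retnla and Mgl2, an effector and a lectin of alternative activation, had 1.55 (SE 0.58) and 1.01 (SE 0.43), and both fell with injury by more than 4 log2 units in each genotype. Arg1, arginase, had -0.06 (95% interval -1.13 to 1.002), so that a 2-fold interaction was within its error.

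Of 31 wound healing genes tested, 1 was positive and 3 were negative, beside 1.58% and 3.16% of all genes, with a median of 0.08. The negative ones were Tnc, the matrix protein tenascin C (-1.10, SE 0.36), Mmp2, a gelatinase (-0.86, SE 0.28), and Col3a1, a collagen chain also on the fibroblast list (-0.95, SE 0.45). Mmp2 was at 14.6, 10.8, 13.6 and 11.3 CPM in WT and 14.6, 19.1, 19.7 and 10.5 CPM in KO normal muscle, and at 3.12, 3.96, 3.59 and 4.78 CPM in WT and 2.76, 3.11, 2.29 and 2.70 CPM in KO after CTX. KO normal library 5 was again the lowest, and after CTX every KO library was below every WT library, at the nearest by 3.11 against 3.12 CPM. The positive one was Tgfb3, a transforming growth factor (0.98, SE 0.41), whereas Tgfb1 (-0.08), Vegfa (-0.54), Igf1 (0.52) and Spp1 (-0.70) had unadjusted edgeR p-values of 0.703, 0.0913, 0.152 and 0.341.

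No macrophage identity gene passed the adjusted threshold. Of 19 tissue-resident macrophage markers tested, 3 were positive and 0 negative at an unadjusted edgeR p under 0.05, against 1.58% and 3.16% of all genes, with a median of 0.44, and 15 had positive estimates. Fcna, a ficolin, was at 217, 357, 479 and 261 CPM in WT and 151, 164, 187 and 234 CPM in KO normal muscle, and at 5.95, 3.07, 2.26 and 6.65 CPM in WT and 5.64, 2.55, 7.27 and 9.87 CPM in KO after CTX. It stood lower in 3 of 4 KO libraries of normal muscle and overlapped after CTX (interaction 1.33, SE 0.51, edgeR adjusted p = 0.872). Folr2, a folate receptor, and Cd209f, a lectin, had 0.76 and 1.06, while Timd4 had -0.21 (95% interval -2.03 to 1.61) and Cd163, the haemoglobin scavenger receptor, -0.02 (-0.80 to 0.77). The positive count was 1 without WT normal library 5, WT CTX library 1 or 2, or KO CTX library 4, and 6 without WT normal library 6 or WT CTX library 4. Of 16 pan-macrophage markers 2 were positive, Mertk, a receptor for dying cells (0.53, SE 0.21), and Fcgr1, and 14 had intervals within 1 log2 unit, among them Csf1r at 0.06 (SE 0.16).

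No marker of other leukocytes passed the adjusted threshold. Xcr1, a chemokine receptor of cross-presenting dendritic cells, was at 5.82, 11.4, 4.64 and 6.67 CPM in WT and 14.3, 14.02, 9.86 and 5.43 CPM in KO normal muscle, and at 35.6, 39.3, 43.0 and 25.7 CPM in WT and 23.2, 23.0, 18.3 and 14.9 CPM in KO after CTX. After CTX every KO library was below every WT library, and Xcr1 rose with injury by 2.33 log2 in WT and 0.86 in KO (interaction -1.47, SE 0.42, edgeR adjusted p = 0.404). It was the only one of 11 dendritic cell markers under an unadjusted p of 0.05, where 4.73% of all genes lay. Unlike Xcr1, the dendritic list fell with injury, with median changes of -3.20 log2 in WT and -3.90 in KO. The sum of the list overlapped between genotypes after CTX, at 84.4 to 112 CPM in WT and 62.6 to 109.6 CPM in KO. Of 15 T and NK cell markers, 1 was positive and 1 negative, the latter Gzmb, a granule protease (-1.82, SE 0.79), and 0 of 12 neutrophil, 9 eosinophil, 12 monocyte and 5 B cell markers were called in either direction. Neutrophil sums ran from 437 to 5030.4 CPM among WT and 369 to 7349 CPM among KO normal libraries. The median interaction was 0.82 for the neutrophil and 0.68 for the eosinophil list, and 1 of the 12 and 0 of the 9 intervals lay within 1 log2 unit of 0.

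No gene of glutamine and glutamate metabolism passed even an unadjusted edgeR p of 0.05 (0 of 33 tested, against 4.73% of all genes). The median was -0.05, and for 21 of the 33 the 95% interval lay within 1 log2 unit of 0. Ctps, which uses glutamine to make CTP, was at 9.65, 7.40, 5.93 and 7.72 CPM in WT and 6.86, 9.49, 8.92 and 7.50 CPM in KO normal muscle, and at 14.8, 12.5, 12.96 and 14.4 CPM in WT and 9.27, 9.57, 13.98 and 9.04 CPM in KO after CTX. KO CTX library 3 was within the WT range and the other KO libraries below it (interaction -0.48, SE 0.25, edgeR adjusted p = 1.0). Gpt2, a mitochondrial alanine aminotransferase that also makes 2-oxoglutarate, averaged 30.7 ± 5.22 CPM in WT and 25.1 ± 4.86 CPM in KO normal muscle and 18.1 ± 5.13 and 20.8 ± 3.73 CPM after CTX, an interaction of 0.49 (SE 0.27). Aldh18a1, the first enzyme from glutamate to proline, had -0.33 (SE 0.21). The intervals of Glul, glutamine synthetase (-0.28 to 0.38), Got2, the mitochondrial aspartate aminotransferase (-0.47 to 0.32), and Slc1a5, a glutamine importer (-0.68 to 0.64), exclude a 2-fold interaction, whereas those of Slc7a11, the cystine-glutamate exchanger (-1.49 to 1.39), and Asns, asparagine synthetase (-1.42 to 0.53), do not.

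**Figure D4:**
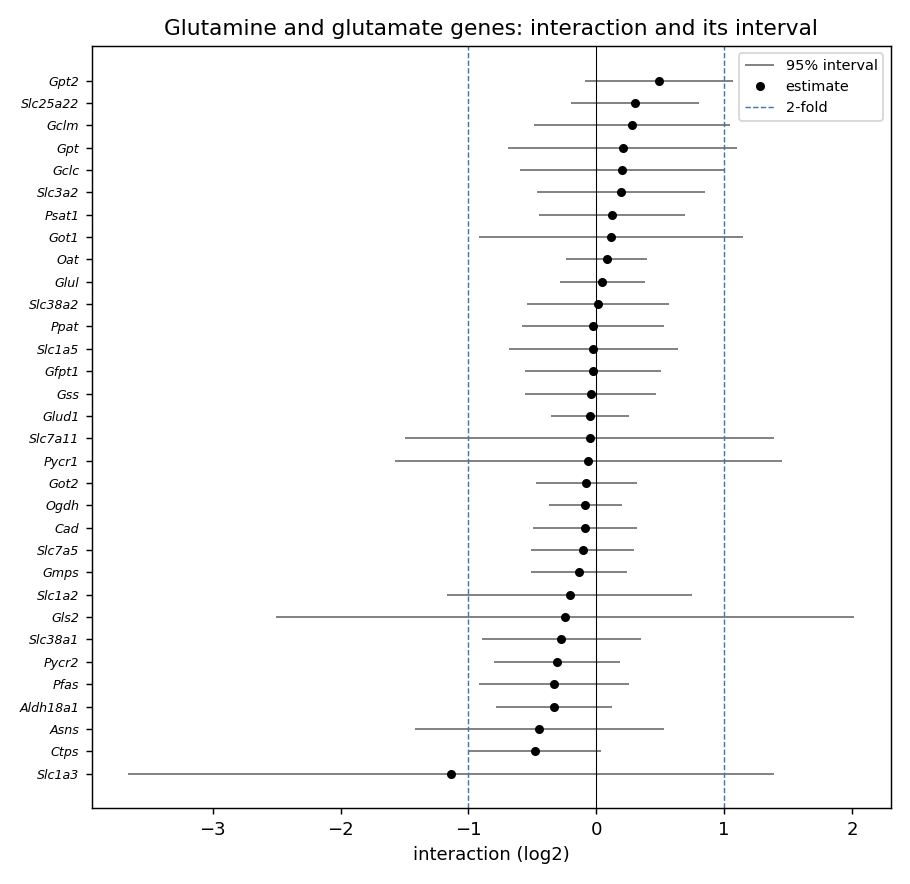
Interaction (log2) of 32 of the glutamine and glutamate genes tested, with the estimate as a point and its 95% interval as a line. Every interval shown includes 0, and 20 of the 32 lie between the dashed lines that mark a 2-fold interaction in either direction.

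No gene of central metabolism passed even the unadjusted threshold. Of 20 TCA cycle genes, 32 nuclear genes of oxidative phosphorylation and 16 glycolysis genes tested, 0 had an unadjusted edgeR p under 0.05, against 4.73% of all genes. The medians were -0.02, -0.02 and 0.06, and the 95% interval of every one of these genes lay within 1 log2 unit of 0. All 3 lists stood higher after CTX in both genotypes, with median injury changes of 0.65, 1.01 and 1.68 log2 in WT and 0.58, 1.02 and 1.73 in KO. All 32 ribosomal protein genes had negative estimates, as did 51.2% of all genes tested. The ribosomal estimates ran from -0.36 to -0.03 with a median of -0.17, 0 were called, and all 32 intervals lay within 1 log2 unit of 0. Of the other lists, cholesterol synthesis held 1 positive member of 21 tested, Sc5d (0.50, SE 0.17), a late enzyme of the pathway. Lipid handling held 1 of each sign among 16, the negative being Fabp5, a fatty acid carrier (-0.67, SE 0.22). MHC class II held 1 negative member of 10, Ciita, the class II transactivator (-1.20, SE 0.56). The muscle fibre list held 1 of 15, Des (-1.45, SE 0.45), which is on the mural list too. Chemokines, hypoxia targets, proliferation, the integrated stress response, lysosome, and immediate early and heat shock genes held 0 of either sign. Of all genes tested, 1.58% were positive and 3.16% negative at that p.

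**Figure D5:**
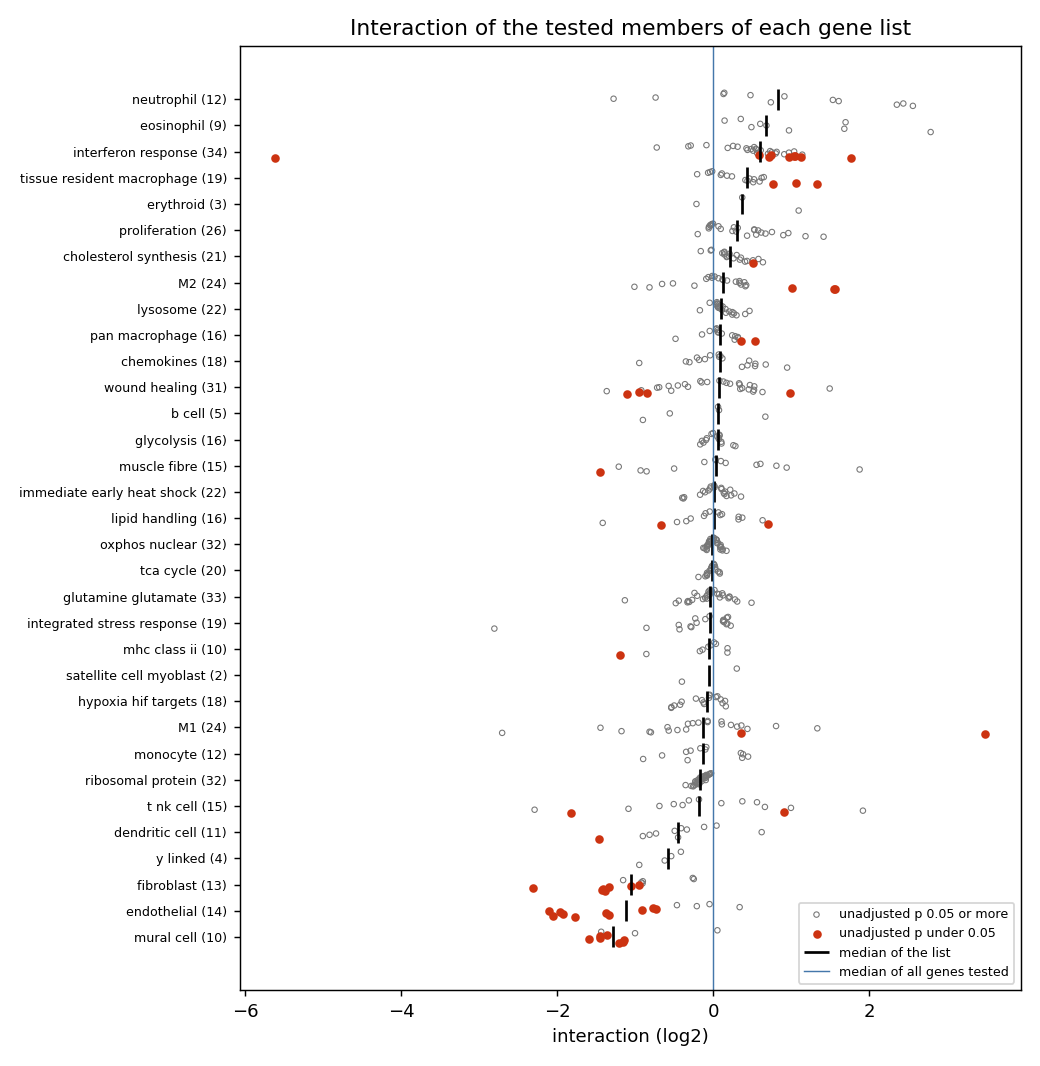
Interaction (log2) of each tested member of 33 gene lists, 1 list a row with the number of members tested, ordered by median (black bars); red points have an unadjusted edgeR p under 0.05. The mural, endothelial and fibroblast rows at the bottom have medians of -1.29, -1.12 and -1.05, the glutamine row -0.05 and the interferon row 0.60, beside -0.01 for all genes (blue line).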

How the data were processed

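Macrophages were sorted on F4/80, and SMART-Seq V4 libraries were made from their RNA after extraction by a micro-scale column kit, per the labels' protocols. The authors deposited raw read counts, 1 whole number per symbol and library. The submitters' processing notes name HISAT2 2.1.0, featureCounts (Subread 1.6.2), cutadapt 1.18, FastQC 0.11.7 and the build mm10. Annotation, strand setting and handling of multi-mapped reads are not given in the sources used here, and the kit keeps no strand, so overlapping genes cannot be told apart.

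The table held 24421 symbols, 5362 of them without a read. Genes were kept with filterByExpr by group (13649), scaled with TMM and tested with the quasi-likelihood test of edgeR 4.0.16 in R 4.3.3, with 1 coefficient per group over 16 libraries, no replicate block and Benjamini-Hochberg adjustment at 0.05. SEs are the estimate divided by the root of F. The alternatives used RLE size factors, library totals, DESeq2 1.42.0 (267 adjusted p-values NA), limma 3.58.1 voom, other filters, a replicate block, sex and leaving out each library. Robust estimation, bias-adjusted deviances, a block for normal muscle alone and all alternatives of the list counts were added after seeing the data. Fits were tested on simulated data. No 2 libraries of a group were alike within counting noise (chi-square per degree of freedom 6.03 to 97.3). Coordinates come from GENCODE M21 (23376 symbols matched).

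The named genes were Glud1, the 8 genes of smallest interaction p in each direction with a mean log2 CPM of at least 3 in 1 group and no predicted name, the 3 of smallest p in the M1, M2, wound healing and glutamine lists, from every further list its top member by p if under 0.05, and up to 6 crossing genes. Further list members are examples chosen after their values were seen. The comparison and its gene lists were chosen with earlier results of these data known. No set test was run. The results of some genes are not reported here. Counting limits cover counting error only, because reads carry no molecular identifiers.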

Additional observations from a re-analysis of the deposited data

Results flagged for a closer look

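In 7 genes the KO libraries lay wholly on one side of the WT libraries in normal muscle and wholly on the other after CTX. Of all 13649 genes tested, 0.0147% had KO below WT in normal muscle and above it after CTX, and 0.0366% the reverse. Whether this is more than a random order of the libraries gives was not tested. Of the 7 genes, 4 were above the expression limit for named genes. The interactions of these 4 were 0.94 for Xdh, -0.84 for Spsb1, 0.95 for Cdc14b and -1.35 for Tspan7, each tested by edgeR's interaction contrast, with adjusted p-values of 0.0818, 0.188, 0.283 and 0.294.

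In 14 of 192 groups of 4 values 1 library stood apart by the 95% limit of Dixon's ratio, where chance sets about 1 in 20 apart. WT normal library 5 stood apart for Ccl24 at 287 CPM, Mgl2 at 798 CPM and Zfp53 at 10.3 CPM, the last being low. WT normal library 2 was high for Ifi44 at 22.7 CPM and Slco2a1 at 3.59 CPM, and KO normal library 5 was high for Ccl24 at 234 CPM. WT CTX library 3 was high for Ccl5 at 119 CPM and Ptpro at 78.1 CPM, and WT CTX library 4 for Zfp53 at 9.79 CPM. KO CTX library 4 was high for Cxcl9 at 13.8 CPM and for the mural sum at 17.98 CPM, and KO CTX library 3 for Ctps at 13.98 CPM. The tissue-resident sum was low in KO normal library 1 at 6311 CPM and in KO CTX library 2 at 5209 CPM.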

How the results depend on the processing

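Of the 29 alternatives to the interaction test, 24 gave 0 genes past the threshold, while DESeq2 gave 48, limma voom 11 and male libraries alone 1. Leaving out 1 library at a time gave 0 to 2. The Glud1 interaction, -0.05 in the test as reported, had the opposite sign in some fits, always close to 0: it was 0.035 with a replicate block across all libraries, 0.027 with a block within each muscle state, 0.026 with a block in normal muscle alone and 0.012 with sex as a covariate. Without 1 library it ran from -0.11 to 0.034, the highest values being 0.034 without WT normal library 6 and 0.032 without KO normal library 3. The Ccl5 interaction of -2.71 became 0.45 without WT CTX library 3 and ran down to -3.11 in the other fits without 1 library. Across 42 named genes other than Glud1 and 29 alternatives, 1215 of 1216 values kept the direction reported and 1 reversed. Of these values 29 passed the threshold where the reported value did not, 18 of them in DESeq2 and 7 in limma voom. Glud1 reversed in 6 of the 29. Many of the 42 were chosen by small p, and the alternatives reuse most or all of the same libraries, so kept directions are no independent support.

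Same-numbered WT and KO libraries of normal muscle deviated together in each of 3 pairs (r = 0.64, 0.57 and 0.24), and those of CTX-injected muscle in none of 4 (r from -0.12 to 0.0046). Some differently numbered libraries of normal muscle did so too, with r = 0.59 for WT 6 with KO 5 and 0.47 for WT 2 with KO 1. The lowest such value was -0.60, for WT 2 with KO 5. The labels do not say what a number marks, so the reported test has no block, and 1 alternative blocks normal muscle alone. The replicate block gave 0 calls in each of its 3 forms, with 696, 865 and 914 genes at an unadjusted p under 0.05 against 646 without it. It changed the positive interferon count from 8 to 2, 5 and 4. That count was 20 with limma voom, 5 with the stricter filter of 5 CPM in 4 libraries, 5 with robust estimation and 2 with sex as a covariate. The positive tissue-resident count, 3 as reported, was 8 with limma voom and 6 with the block across all libraries and within muscle state.

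With 4 libraries a group the median SE of the interaction was 0.263 log2, and under 10 CPM 22% of genes had an interval within 1 log2 unit. Smaller interactions of genes under 10 CPM were therefore mostly not detectable in these libraries. The parts of depth and of the spread among libraries in this limit were not tested. All CTX libraries are male and 3 of the 8 normal ones female, so sex cannot be compared within injured muscle.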
